A study of Mus musculus with 35 samples.

Results

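The 9 genes described here move calcium in the heart muscle cell and set or pass on its electrical excitation: Ryr2, Casq2, Atp2a2, Pln, Sln, Cacna1c, Slc8a1, Gja1 and Hcn4. They were taken by symbol from the 55356 genes and loci of the count table, with earlier results of these data known, and all 9 were found and passed the filter on low counts. Brain, cerebellum, colon, heart and gonads of adult C57BL/6J mice were sequenced as 29 RNA-seq libraries, and the question here was how the 9 genes in heart compare with brain, cerebellum, colon, ovary and testis. Heart was represented by 3 female and 2 male libraries, brain, cerebellum and colon each by 3 female and 3 male libraries, ovary by 3 female libraries and testis by 3 male libraries. All animals were untreated mice of this inbred strain as far as the labels say, and no transgene or other agent is named. The labels do not say which libraries came from the same animal, or which chambers of the heart were taken, so p-values measure only the spread between these libraries.

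In a heart muscle cell, depolarization opens L-type calcium channels in the surface membrane, and the calcium that enters makes ryanodine receptors release much more calcium from the sarcoplasmic reticulum. The muscle relaxes when SERCA pumps return calcium to the reticulum and the sodium-calcium exchanger removes the rest from the cell. Gap junctions carry the excitation from cell to cell, and the pacemaker current that starts each beat in the sinoatrial node flows through HCN channels.

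Of the members, 6 were counted as ENSEMBL genes and 3 under loci that long-read Iso-seq transcripts defined. On mouse genome build GRCm38.p6, Ryr2 (ENSMUSG00000021313) lies at chr13:11553102-12106945, Casq2 (ENSMUSG00000027861) at chr3:102086415-102146514, Sln (ENSMUSG00000042045) at chr9:53850164-53854560, Cacna1c (ENSMUSG00000051331) at chr6:118587240-119196418, Slc8a1 (ENSMUSG00000054640) at chr17:81373105-81738377 and Hcn4 (ENSMUSG00000032338) at chr9:58823412-58863175. The Iso-seq loci were PB.9570 for Atp2a2 at chr5:122453513-122501723 with 29 transcript models, PB.955 for Pln at chr10:53337704-53345997 with 5 models, and PB.962 for Gja1 at chr10:56377329-56390610 with 20 models. Their exons covered 85.9%, 84.2% and 61.5% of the GENCODE exon bases of Atp2a2, Pln and Gja1.

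RefSeq promoter windows, from 250 bases before to 50 after a start, were held for 7 of the 9 genes. Those of 4 genes are shown because their levels varied together in pairs across the 29 libraries. Pln and Casq2 had a Pearson r of 0.89 on log2 CPM, and Ryr2 and Slc8a1 an r of 0.93. Ryr2 and Slc8a1 each had a higher r with Cacna1c (0.95 and 0.94), whose windows are not shown. These r describe libraries that share tissues, and Ryr2, Slc8a1, Cacna1c and Hcn4 formed a set whose 6 pairwise r lay between 0.83 and 0.95. Over all 36 pairs of members r ran from -0.08 to 0.95. In the windows below, all on build GRCm38.p6 and read 5′ to 3′ along the gene, capitals mark TATAAA and the GATA motif (AGATAA or TGATAA, on either strand).
Pln, chr10:53337436-53337735, plus strand: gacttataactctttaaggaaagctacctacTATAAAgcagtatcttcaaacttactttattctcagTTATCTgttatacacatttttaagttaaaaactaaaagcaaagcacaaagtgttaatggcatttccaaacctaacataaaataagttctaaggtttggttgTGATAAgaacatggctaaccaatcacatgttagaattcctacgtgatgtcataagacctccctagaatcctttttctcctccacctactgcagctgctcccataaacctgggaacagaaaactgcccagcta
Casq2, chr3:102086165-102086464, plus strand: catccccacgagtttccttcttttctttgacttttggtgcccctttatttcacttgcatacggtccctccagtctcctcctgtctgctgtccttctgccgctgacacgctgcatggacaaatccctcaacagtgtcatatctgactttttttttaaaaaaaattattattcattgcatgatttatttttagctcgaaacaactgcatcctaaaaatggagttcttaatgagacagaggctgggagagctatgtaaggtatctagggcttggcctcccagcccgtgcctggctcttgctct
Ryr2, chr13:12106896-12107195, minus strand: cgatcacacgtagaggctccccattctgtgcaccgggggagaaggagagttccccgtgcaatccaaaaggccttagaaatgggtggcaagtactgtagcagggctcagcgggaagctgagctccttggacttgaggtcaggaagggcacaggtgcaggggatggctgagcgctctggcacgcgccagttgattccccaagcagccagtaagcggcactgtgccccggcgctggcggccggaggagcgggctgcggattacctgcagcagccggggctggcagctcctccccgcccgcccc
Slc8a1, chr17:81738338-81738637, minus strand: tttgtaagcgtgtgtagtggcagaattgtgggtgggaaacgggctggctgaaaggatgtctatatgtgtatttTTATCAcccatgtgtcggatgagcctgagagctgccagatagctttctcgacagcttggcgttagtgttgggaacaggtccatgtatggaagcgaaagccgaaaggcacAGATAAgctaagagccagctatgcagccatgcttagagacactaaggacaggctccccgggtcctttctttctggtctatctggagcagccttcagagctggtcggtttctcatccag

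The Pln window held TATAAA 219 bases before the RefSeq start and GATA motifs at 183 and 82 bases before it, and had the lowest GC content of the 9 windows of members, 36.0% against a median of 52.7% over 32851 promoters. The Slc8a1 window held GATA motifs at 177 and 68 bases before the start, and the Casq2 and Ryr2 windows held neither motif. Of the members not shown, Gja1 had a GATA motif at 135 bases before the start, so 3 of the 7 genes had one. The windows of Cacna1c and Hcn4 held neither motif. TATAAA occurred in 13.6% of all promoters of this length and the GATA motif in 18.6%. The CArG box (1.63% of promoters) and the M-CAT motif CATTCC (14.7%) were in no window of a member. The 5′ end of the counted model coincided with the RefSeq start for Casq2 and Ryr2, and for Pln it lay 18 bases downstream.

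Levels are given as FPKM, counts scaled to the library's total and to the length of the gene's exons, which allows genes to be compared. Differences between groups are log2 differences from edgeR's quasi-likelihood test on counts with TMM scaling, given with their standard error (SE). A gene is called at a Benjamini-Hochberg adjusted p under 0.05 over the 29911 genes tested. Heart was compared with the mean of the other 5 tissues at equal weight. The scaling matters for heart: TMM factors were 0.60 to 0.71 in 4 heart libraries, 1.12 in female heart replicate 3 and 0.86 to 1.45 in all other libraries. The median log2 difference of all genes was -0.55 with TMM and -1.03 with library totals alone.

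Total counts ranged from 11742417 to 36194255 per library, and from 19590147 to 25062064 in heart. The tissue labels were checked with markers: 6 of 6 heart muscle, 3 of 3 colon epithelium, 3 of 3 testis germ cell, 4 of 4 ovarian granulosa, 3 of 3 neuron and 3 of 4 astrocyte markers were higher in the labelled tissue than in every other library. Female heart replicate 3 stood apart from the other 4 heart libraries. Its 10 most abundant genes held 17.8% of counts against 26.2% to 28.4%. The sum of 4 atrial markers was 5078 FPKM there and 48.0 to 180 FPKM in the others, while the sum of 6 heart muscle markers was 19421 against 40301 to 50926 FPKM. The sums for fibroblast (872 against 350 to 504 FPKM), smooth muscle (215 against 68.8 to 126 FPKM), skeletal muscle (11.3 against 0.633 to 4.50 FPKM), sinoatrial node (9.43 against 2.52 to 3.26 FPKM) and astrocyte markers (43.5 against 1.97 to 2.58 FPKM, from Slc1a3 and Aldh1l1) were also highest there. In whole tissue, fewer cells of a type and less RNA per cell cannot be told apart.

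All 9 genes were called higher in heart than in the mean of the other tissues, where 22.1% of all tested genes were called higher and 29.6% lower. The median log2 difference of the 9 was 5.22, against -0.55 for all genes. The spread among members was wide, from 10.48 for Pln to 0.78 for Gja1. With library totals in place of TMM the 9 calls stood, while the genes called higher and lower went from 6599 and 8853 to 4078 and 12796. Without female heart replicate 3 all 9 were also called higher. For 4 of the 9 (Ryr2, Casq2, Atp2a2 and Pln) every heart library was above each of the 24 other libraries, which held for 3.43% of all tested genes.

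**Figure D1:**
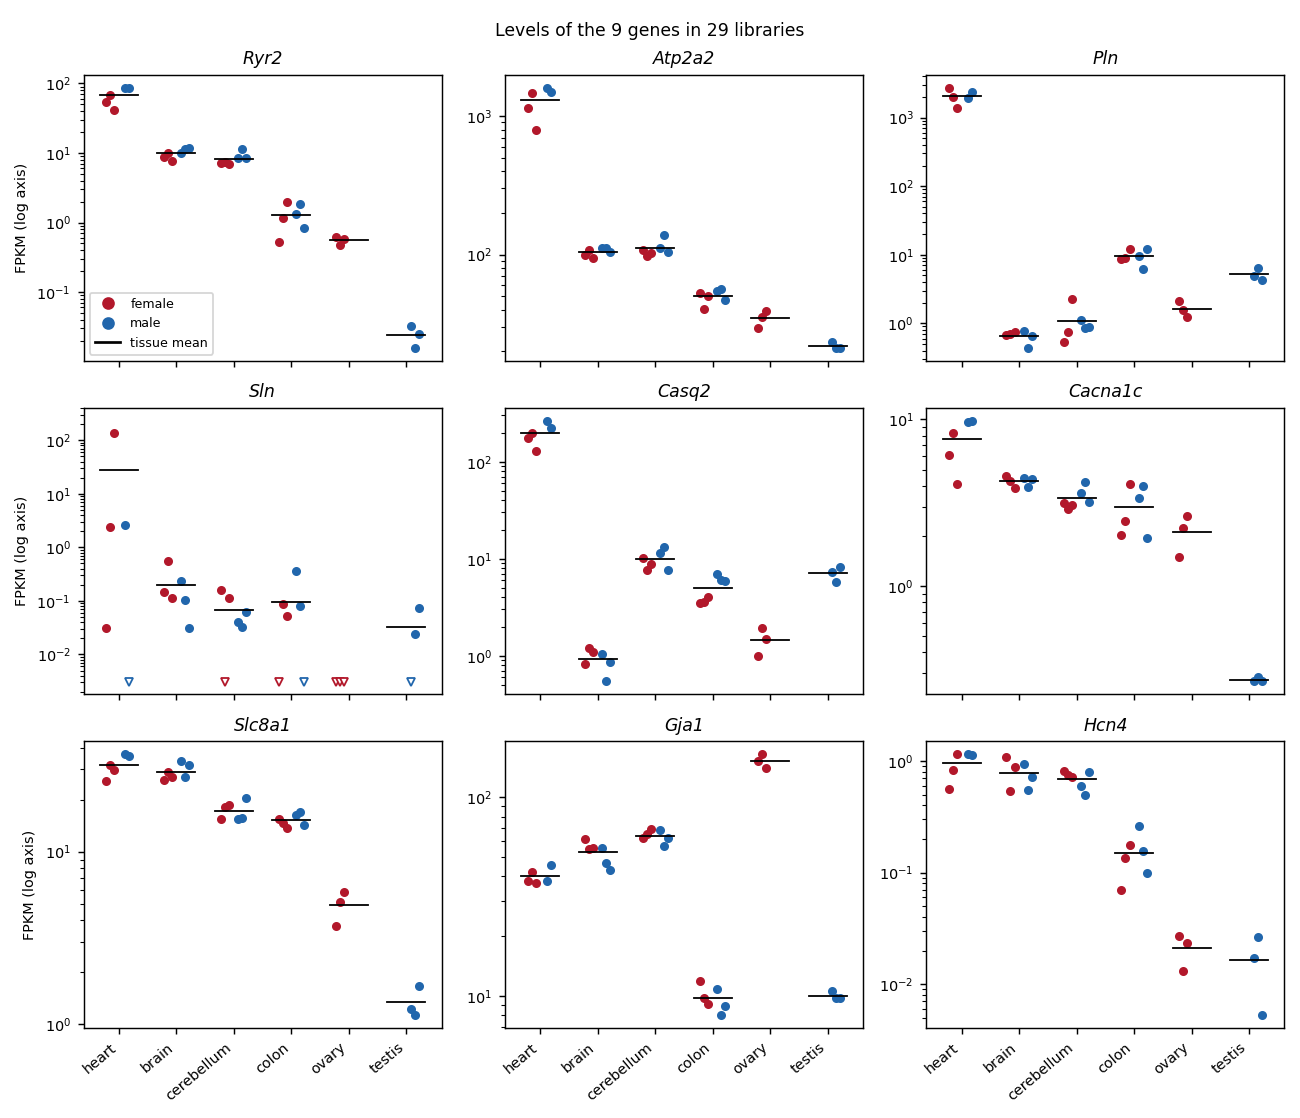
Level of each of the 9 genes (FPKM, log axis) in every library by tissue, female in red and male in blue, with a black line at the tissue mean. Open triangles at the foot of the Sln panel mark libraries with a count of 0. Heart lies above all other tissues for Ryr2, Atp2a2, Pln and Casq2, and ovary is highest for Gja1 at a mean of 153 FPKM.

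Ryr2 encodes the ryanodine receptor of heart muscle, which releases calcium from the reticulum. Its level was 53.4, 69.1 and 42.2 FPKM in the 3 female heart libraries and 86.7 and 87.4 FPKM in the 2 male ones. The lowest heart library, female replicate 3, was 3.61 times the highest other library, a male brain library at 11.7 FPKM. Ryr2 was higher in heart than in the other tissues by a log2 difference of 6.59 (SE 0.20, adjusted p = 1.94e-19 in edgeR's test). The order of tissue means below heart (67.8 ± 20.1 FPKM, SD, n = 5) was brain at 9.96 ± 1.51 (n = 6), cerebellum at 8.31 ± 1.62 (n = 6), colon at 1.28 ± 0.559 (n = 6), ovary at 0.555 ± 0.0752 (n = 3) and testis at 0.0245 ± 0.00862 FPKM (n = 3). Brain and cerebellum did not differ beyond their spread (adjusted p = 0.251), and every other neighbour in this order did. For such neighbours outside heart, the share of all genes called in either direction was 26.1% between brain and cerebellum, 68.3% between brain and colon, 56.8% between brain and ovary, 66.1% between cerebellum and colon, 53.5% between cerebellum and ovary, 71.0% between cerebellum and testis, 48.0% between colon and ovary, 71.9% between colon and testis and 64.3% between ovary and testis.

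Ryr2 made up 99.8% of the summed FPKM of the 3 ryanodine receptor genes in heart. In brain it made up 75.7%, with Ryr3 at 20.7%, and in testis 4.75%, with Ryr3 at 67.8% and Ryr1, the form of skeletal muscle, at 27.5%. The testis sum was only 0.524 FPKM, so this share describes low levels. Ryr1 was counted on an Iso-seq locus, with at most 160 counts in any library, and its share rests on the exon length of that locus.

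Casq2, the calcium-binding protein that stores calcium inside the reticulum beside the ryanodine receptor, was at 177, 196 and 129 FPKM in female and 263 and 222 FPKM in male heart. Female replicate 3 was again the lowest, 9.76 times the highest library outside heart. The log2 difference from the other tissues was 6.46 (SE 0.16, adjusted p = 4.12e-21). Outside heart, Casq2 was highest in cerebellum (9.88 ± 2.23 FPKM, SD, n = 6) and testis (7.11 ± 1.22 FPKM, n = 3), which did not differ beyond their spread (adjusted p = 0.650). Colon followed at 5.00 ± 1.47 FPKM (n = 6), and ovary at 1.47 ± 0.466 (n = 3) and brain at 0.930 ± 0.236 FPKM (n = 6) did not differ from each other beyond their spread (adjusted p = 0.418). The paralog Casq1 held 2.39% of the calsequestrin sum in heart and 38.9% in brain.

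Atp2a2 encodes the SERCA pump of heart and slow muscle, which returns calcium to the reticulum. It was at 1140.5, 1477 and 791 FPKM in female and 1608 and 1486 FPKM in male heart. The lowest of these was 5.73 times the highest library outside heart, a male cerebellum library at 138 FPKM, so heart stood clear of all other tissues. The log2 difference was 5.22 (SE 0.13, adjusted p = 8.67e-21). Outside heart, cerebellum had 111 ± 14.2 FPKM (SD, n = 6), brain 105 ± 6.87 (n = 6), colon 50.4 ± 5.93 (n = 6), ovary 34.6 ± 4.77 (n = 3) and testis 21.9 ± 1.23 FPKM (n = 3). Cerebellum and brain (adjusted p = 0.929), and ovary and testis (adjusted p = 0.940), did not differ beyond their spread. It held 99.5% of the SERCA sum in heart and 98.4% in brain, but 77.9% in cerebellum and 62.4% in colon, where Atp2a3 made up 21.2% and 37.3%.

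Pln encodes phospholamban, the small membrane protein that holds the SERCA pump back until it is phosphorylated. Of the 9 genes it had the highest level in heart, at 2748, 2024 and 1368 FPKM in female and 1936 and 2347 FPKM in male libraries. The lowest heart library was 113 times the highest other library. Its log2 difference, 10.48 (SE 0.25, adjusted p = 2.98e-21), was the largest of the members. Colon came next with 9.57 ± 2.25 FPKM (SD, n = 6) and did not differ beyond its spread from testis at 5.21 ± 1.11 FPKM (n = 3, adjusted p = 0.160). Ovary (1.63 ± 0.438 FPKM, n = 3), cerebellum (1.07 ± 0.630, n = 6) and brain (0.661 ± 0.117 FPKM, n = 6) were lower, and neighbours among these did not differ beyond their spread. Smooth muscle markers, 5 of 5 detected in every tissue, summed to 3691 to 8948 FPKM in colon, 1430 to 2745 in ovary, 154 to 212 in testis and 15.9 to 37.2 FPKM in brain and cerebellum. Their part in the level of Pln was not tested.

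The gene Gm47644 on the opposite strand shares 1372 exon bases with Pln. Its counts were 80.3% to 84.2% of those of Pln in every heart library and 70.6% to 105% in the other tissues. Whether reads of Pln were also counted for Gm47644, or the reverse, was not tested, and the level of Pln is uncertain to that extent. Opposite-strand genes that share 83 exon bases with Atp2a2 and 8 or 296 with Slc8a1 had counts of at most 7.08% and 4.53% of theirs.

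Sln encodes sarcolipin, another small regulator of the SERCA pump, known in the heart from atrial muscle. Its counts in heart were 1, 78 and 4264 in the female libraries and 67 and 0 in the male libraries, or 0.0312, 2.36, 134.7, 2.59 and 0 FPKM. Female replicate 3 alone held nearly all of the signal, and the heart libraries overlapped with those of other tissues. For the library at 0, 3 counts would have been 0.110 FPKM. The other tissues had 0 to 21 counts per library. The 3 ovary libraries had 0 counts, so the mean of heart was at least 221-fold higher, and its median at least 18.7-fold higher, than the level at 3 counts per ovary library. With female heart replicate 3 left out the mean was 1.25 FPKM, and these bounds were 9.88-fold and 9.48-fold. Sln was called higher in heart (fitted log2 difference 7.62, SE 0.92, adjusted p = 1.58e-07), a value that depends on the prior count since ovary was at 0. The difference was 5.32 (adjusted p = 1.18e-06) without female heart replicate 3. Without male heart replicate 1, which leaves male heart with only a library at 0, it was 3.18 with an adjusted p of 1.00. Outside heart, no neighbours in the order of tissues differed beyond their spread for Sln.

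The atrial markers followed the same libraries as Sln. Myl7, the atrial myosin light chain, was at 9.83, 76.4 and 1989 FPKM in female and 60.4 and 6.66 FPKM in male heart. Myl4 was at 0.266, 13.3, 303, 10.4 and 0.293 FPKM, and the natriuretic peptide gene Nppa at 55.7, 90.1, 2770, 76.7 and 41.0 FPKM in the same order. Bmp10, a secreted factor of atrial muscle, was at 16.0 FPKM in female replicate 3 and at 0.00916 FPKM or 0 in the others. Thus the 2 heart libraries with the least Sln were also those with the least Myl7, Myl4 and Nppa. The part of atrial tissue in the level of Sln was not tested. The genes most like Sln over the 29 libraries, by Pearson r on log2 CPM, were Hamp (0.88), Mybphl (0.88) and Gm33432 (0.83), and Mybphl was at 91.7 FPKM in female replicate 3 against a heart mean of 19.4 FPKM.

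**Figure D2:**
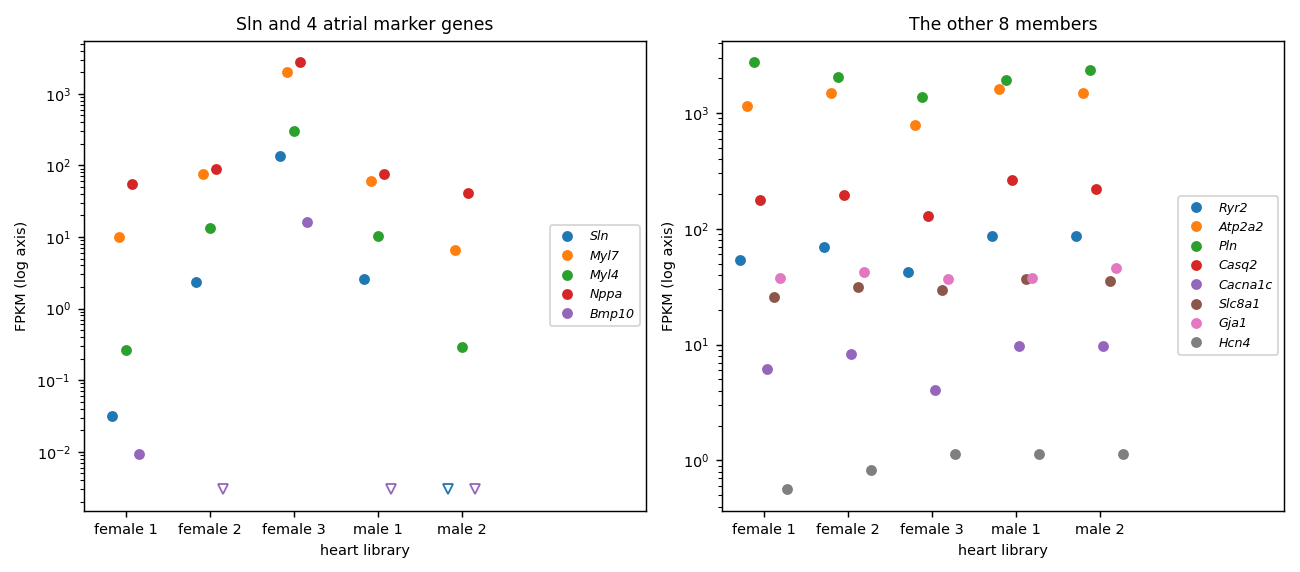
Level (FPKM, log axis) in each of the 5 heart libraries of Sln with 4 atrial markers (left) and of the other 8 members (right), with open triangles for a count of 0. Sln and the atrial markers are highest in female replicate 3, where Ryr2, Atp2a2, Pln, Casq2 and Cacna1c are lowest.

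Calcium entry runs through Cacna1c, the pore of the main L-type channel of heart and a channel of neurons and smooth muscle as well. It was at 6.11, 8.35 and 4.09 FPKM in female and 9.69 and 9.79 FPKM in male heart, and 4 of the 5 heart libraries were above all others. Female replicate 3 lay below the highest brain library, at 4.60 FPKM. The log2 difference was 2.62 (SE 0.17, adjusted p = 4.50e-13). Below heart, brain (4.24 ± 0.293 FPKM, SD, n = 6), cerebellum (3.37 ± 0.483, n = 6) and colon (2.98 ± 0.958 FPKM, n = 6) were so close that neighbours did not differ beyond their spread (adjusted p = 0.116 and 0.530). Ovary was at 2.12 ± 0.586 FPKM (n = 3) and testis at 0.275 ± 0.0101 FPKM (n = 3). In heart Cacna1c held 65.1% of the summed FPKM of 3 L-type genes and Cacna1s, the channel of skeletal muscle, 30.5%. Cacna1s was counted on an Iso-seq locus with at most 304 counts in any library, against 2083 to 4432 counts of Cacna1c in heart. Its share thus rests on the exon length of that locus. In brain the second gene was Cacna1d, with 36.1%.

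Slc8a1 encodes NCX1, the exchanger that removes calcium in return for sodium. Its heart libraries, at 25.8, 31.6 and 29.5 FPKM in female and 36.5 and 35.6 FPKM in male mice, overlapped with brain, which ran from 25.9 to 33.6 FPKM with a median of 28.0. On library totals only the 2 male heart libraries were above all brain libraries. With totals scaled by TMM the means were 43.6 ± 10.6 FPKM (SD) in heart and 29.2 ± 3.26 FPKM in brain, so the overlap depends on the scaling. Heart was higher than brain by a log2 difference of 0.61 (SE 0.15, adjusted p = 8.90e-04), but by 0.16 (adjusted p = 0.291) with library totals in place of TMM. Against the mean of the other tissues the difference was 2.44 (SE 0.11, adjusted p = 3.01e-16). Cerebellum (17.3 ± 2.09 FPKM, SD, n = 6) and colon (15.2 ± 1.27 FPKM, n = 6) did not differ beyond their spread (adjusted p = 0.2497), with ovary (4.90 ± 1.10 FPKM, n = 3) and testis (1.35 ± 0.288 FPKM, n = 3) below them. The paralogs were divided differently among tissues, without a test: Slc8a1 held 99.6% of the exchanger sum in heart but 42.6% in brain, where Slc8a2 held 42.9%, and 15.0% in testis, where Slc8a2 held 84.6%.

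Gja1 encodes connexin 43, the main gap junction protein of the working ventricle and also of astrocytes and ovarian granulosa cells. It was at 37.8, 42.1 and 36.96 FPKM in female and 37.8 and 45.6 FPKM in male heart. From lowest to highest heart library its level differed by 1.23-fold on library totals and by 2.02-fold with totals scaled by TMM. Ovary was far higher at 153, 164 and 141 FPKM, and heart was lower than ovary by a log2 difference of -1.03 (SE 0.15, adjusted p = 4.29e-06). Cerebellum had 64.1 ± 4.69 FPKM (SD, n = 6) and brain 52.9 ± 6.88 FPKM (n = 6). Neither cerebellum and brain (adjusted p = 0.436) nor brain and heart (log2 difference of heart 0.08, SE 0.13, adjusted p = 0.689) differed beyond their spread with TMM. The log2 difference of heart from cerebellum was -0.07 (SE 0.13, adjusted p = 0.713). With library totals, heart was called lower than brain (-0.39, adjusted p = 0.00246) and than cerebellum (-0.67, adjusted p = 5.61e-06), so the place of heart among these tissues depends on the scaling. Heart was higher than colon (9.76 ± 1.40 FPKM, n = 6) by 2.65 and than testis (10.03 ± 0.442 FPKM, n = 3) by 2.26, with adjusted p of 7.77e-15 and 1.08e-11.

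The call of Gja1 as higher in heart than in the mean of the other tissues (0.78, SE 0.10, adjusted p = 2.63e-07) averages log2 levels, and of the 5 tissues only colon and testis were themselves called lower than heart. On the linear FPKM scale the heart mean was 0.691 times the mean of the other 5 tissue means. With library totals the log2 difference was 0.21 (adjusted p = 0.0342). Astrocyte markers, all 4 detected, summed to 301 to 440 FPKM in brain and 573 to 733 FPKM in cerebellum, and granulosa markers, 4 of 4 detected, to 112 to 197 FPKM in ovary. In heart the granulosa sum was at most 0.430 FPKM and 1 of its 4 markers was at 0. Their part in the level of Gja1 was not tested. Gja1 held 87.4% of the sum of 3 connexins in heart and 42.6% in colon, where Gja5, the connexin of large arteries, atria and conduction fibres, held 43.9%.

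Hcn4, the main pacemaker channel of the sinoatrial node, was low everywhere. Its heart libraries had 84, 128 and 168 counts in female and 137 and 144 in male mice, or 0.565, 0.835, 1.14, 1.14 and 1.14 FPKM. Brain ran from 0.533 to 1.09 FPKM with a median of 0.802 and cerebellum from 0.498 to 0.806 with a median of 0.735, so the tissues overlapped. Heart was called higher than brain (0.74, SE 0.24, adjusted p = 0.0105) and cerebellum (1.05, SE 0.24, adjusted p = 6.23e-04). With library totals neither call stood (adjusted p = 0.329 and 0.116). Against all other tissues the difference was 3.49 (SE 0.20, adjusted p = 4.64e-14), with ovary and testis at 1 to 5 counts per library. Brain and cerebellum (adjusted p = 0.391), and ovary and testis (adjusted p = 0.733), did not differ beyond their spread. Its paralog Hcn2 was at 7.42 FPKM in heart, above the level of Hcn4 there. On library totals female replicate 3, with the highest sum of sinoatrial markers (9.43 FPKM), had the same level of Hcn4 as both male libraries to 3 digits. The TMM factor was 1.12 in this library and 0.70 and 0.68 in the male ones. With totals scaled by TMM, Hcn4 ran from 0.935 to 1.67 FPKM over the heart libraries, so the equality holds only on library totals. Of the 4 sinoatrial markers Isl1 was at 0 in the 4 heart libraries other than female replicate 3. Tbx18, Tbx3 and Shox2 were detected in all 5.

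**Figure D3:**
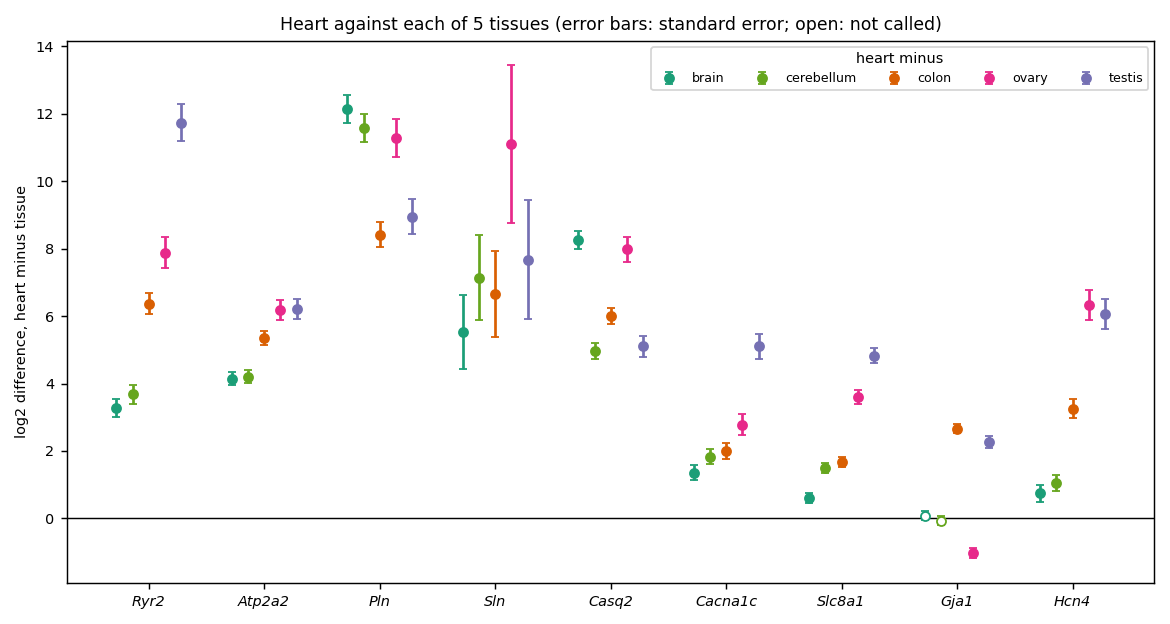
Log2 difference of heart from each of 5 tissues for the 9 genes, with bars for the standard error and open points where the difference was not called. All points lie above 0 except Gja1 against cerebellum (-0.07) and ovary (-1.03).

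Heart was also compared with each tissue in turn. These 5 comparisons share the same heart libraries. Against brain 8 of the 9 members were called higher (23.7% of all genes were called higher and 35.1% lower), and against cerebellum 8 (23.5% higher, 33.9% lower). All 9 were higher than in colon (25.0% higher, 28.9% lower) and in testis (25.3% higher, 42.2% lower). Against ovary 8 were higher and Gja1 was lower (18.3% higher, 25.7% lower). The nearest tissue differed among members. For Ryr2 (3.28), Sln (5.53), Cacna1c (1.36), Slc8a1 (0.61) and Hcn4 (0.74) the smallest log2 difference was that from brain, for Pln (8.42) that from colon and for Casq2 (4.97) that from cerebellum. The difference of Atp2a2 was 4.15 from brain and 4.21 from cerebellum, and with library totals that from cerebellum was the smaller (3.59 against 3.66). With library totals the calls for Slc8a1 against brain and for Hcn4 against brain and cerebellum were lost. Limma voom did not call Sln against brain (adjusted p = 0.177) or colon (adjusted p = 0.0634), which left 7 and 8 members called higher there. Without male heart replicate 1, Sln was called against none of the 5 tissues in edgeR's test (adjusted p = 1.00 in each).

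Paralogs were compared by their shares, with no test. In each of 7 families a member of the set had the largest mean share of the summed FPKM in heart, from 65.1% for Cacna1c and 87.4% for Gja1 to 99.8% for Ryr2. The share of Gja1 was 78.5% in the lowest heart library, and it rests on the Iso-seq exon length. That of Cacna1c likewise rests on the Iso-seq exon length of Cacna1s. Shares of the HCN family were not computed here, and Hcn4, at 0.965 FPKM in heart, was below its paralog Hcn2 at 7.42 FPKM. Among the small SERCA regulators Pln held 97.1% in heart, Sln 1.83% and Strit1, a peptide that relieves the pump of inhibition, 1.09%. The share of Sln without female heart replicate 3 was 0.0623%, below that of Strit1 at 1.16%.

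**Figure D4:**
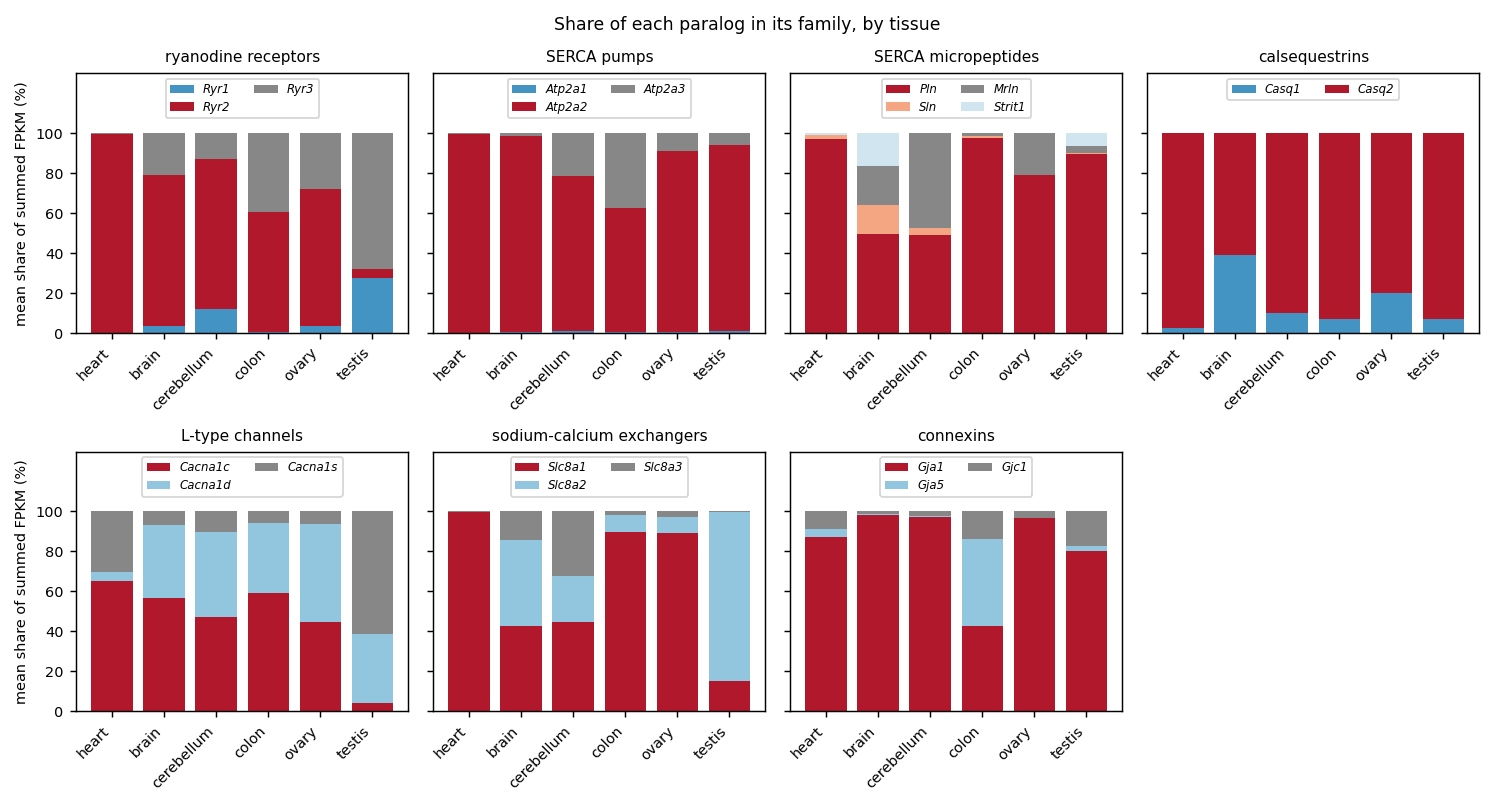
Mean share (%) of each paralog in the summed FPKM of its family in the 6 tissues, with 7 members in red and Sln in light orange. In heart Ryr2, Atp2a2 and Slc8a1 each hold over 99%, while Slc8a2 holds 84.6% of the exchanger sum in testis.

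Beyond the 9 members, 35 other genes of the same processes were compared between heart and the other tissues. Of these, 22 were called higher and 10 lower, with a median log2 difference of 1.52, where 22.1% of all tested genes were called higher and 29.6% lower with a median of -0.55. Without female heart replicate 3 the counts were 21 and 11. The release list of 10 genes had 6 higher and 2 lower (median 1.68). Hrc, a histidine-rich calcium-binding protein of the reticulum, was higher by 11.00 (SE 0.30), at 211 ± 49.6 FPKM in heart (SD, n = 5) and no more than a mean of 1.10 FPKM in any other tissue. Trdn, the triadin that ties calsequestrin to the ryanodine receptor, was higher by 8.87 (SE 0.31), and Casq1 by 3.75 (SE 0.21). Ryr3 was lower by a log2 difference of -2.27 (SE 0.21) and Fkbp1b, which binds and steadies ryanodine receptors, by -1.17 (SE 0.25). Ryr1 was at 0.00499 FPKM in heart and 1.33 FPKM in cerebellum and was not called (adjusted p = 1.00). It had no count in male colon. DESeq2 and limma voom called it lower, by -3.97 (adjusted p = 1.29e-04) and -3.17 (adjusted p = 1.27e-07).

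Of 7 uptake genes 5 were higher and 1 lower (median 1.45). Strit1 had 12.3 to 54.3 FPKM in heart and no count in cerebellum, colon and ovary, and its heart mean was at least 23.6-fold higher than the level at 3 counts per library there. S100a1, a calcium-binding activator of the pump, was higher by 4.08 (SE 0.18), at 693 ± 229 FPKM (SD, n = 5). Ppp1r1a, an inhibitor of protein phosphatase, was lower by a log2 difference of -1.89 (SE 0.39), and by -2.87 without female heart replicate 3. Atp2a1, the fast skeletal muscle pump, was called higher (2.17, SE 0.47), but without female heart replicate 3 the difference was 0.91 (adjusted p = 0.102), and without male heart replicate 1 it was 0.88 (adjusted p = 0.329). Skeletal muscle markers were highest in these 2 heart libraries, at 11.3 and 4.50 FPKM in sum, and their part was not tested. Mrln was higher by 1.45 (SE 0.41), though at 0.558 FPKM in heart and 0.918 FPKM in cerebellum, and Atp2a3 was not called at -0.31 (SE 0.17). Without female heart replicate 3 Atp2a3 was called lower (-0.55, adjusted p = 0.00477), and with library totals the call of Mrln was lost (adjusted p = 0.0806).

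The entry and exit list of 10 genes was divided, with 4 higher and 6 lower (median -1.07). Cacna1s was higher by 3.03 (SE 0.22), though at 3.55 FPKM in heart and 3.999 FPKM in testis, and Cacnb2, the auxiliary subunit of the cardiac L-type channel, by 2.50 (SE 0.14). Slc8a2 was lower by a log2 difference of -5.96 (SE 0.39), Slc8a3 by -4.01 (SE 0.44) and Cacna1d by -2.29 (SE 0.19). The difference of Slc8a3 was -5.45 without female heart replicate 3. The plasma membrane calcium pumps Atp2b1 and Atp2b4 were lower as well, by -1.12 (SE 0.13) and -1.02 (SE 0.17). Cacna1g was called higher by 0.51 (SE 0.18) but turned to -0.85 when heart was set against brain, cerebellum and colon only and to -0.022 with library totals. Without female heart replicate 2 it was 0.29 (adjusted p = 0.202), and the call was also lost without either male heart library (adjusted p = 0.0672 and 0.0855).

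Of 8 excitation and coupling genes 7 were higher and 1 lower (median 1.96). Kcnip2, a subunit of the transient outward potassium channel, was higher by 5.68 (SE 0.20), and Kcnq1, the pore of the slow delayed rectifier potassium channel, by 3.85 (SE 0.20). Kcnip2 was at 73.5 FPKM in heart and 34.4 FPKM in brain, and Kcnq1 at 7.69 ± 1.53 FPKM in heart (SD, n = 5) and 5.36 FPKM in colon. Gja5 (1.75, SE 0.34), Gjc1 (1.52, SE 0.12) and Hcn2 (2.002, SE 0.18) were higher in heart than in the mean of the other tissues. Gja5 was however at 1.83 FPKM in heart and 11.6 FPKM in colon, and Gjc1 at 3.95 FPKM in heart and 4.99 FPKM in ovary. The heart libraries of Gja5 ran from 0.389 to 6.13 FPKM with a median of 0.840. Without female heart replicate 3 the log2 difference of Gja5 was 0.99 (adjusted p = 0.00712 in edgeR's test). Hcn2 was nevertheless at 7.42 FPKM in heart against 26.1 FPKM in brain and 38.3 FPKM in cerebellum. Hcn3 was lower by a log2 difference of -4.87 (SE 0.34).

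**Figure D5:**
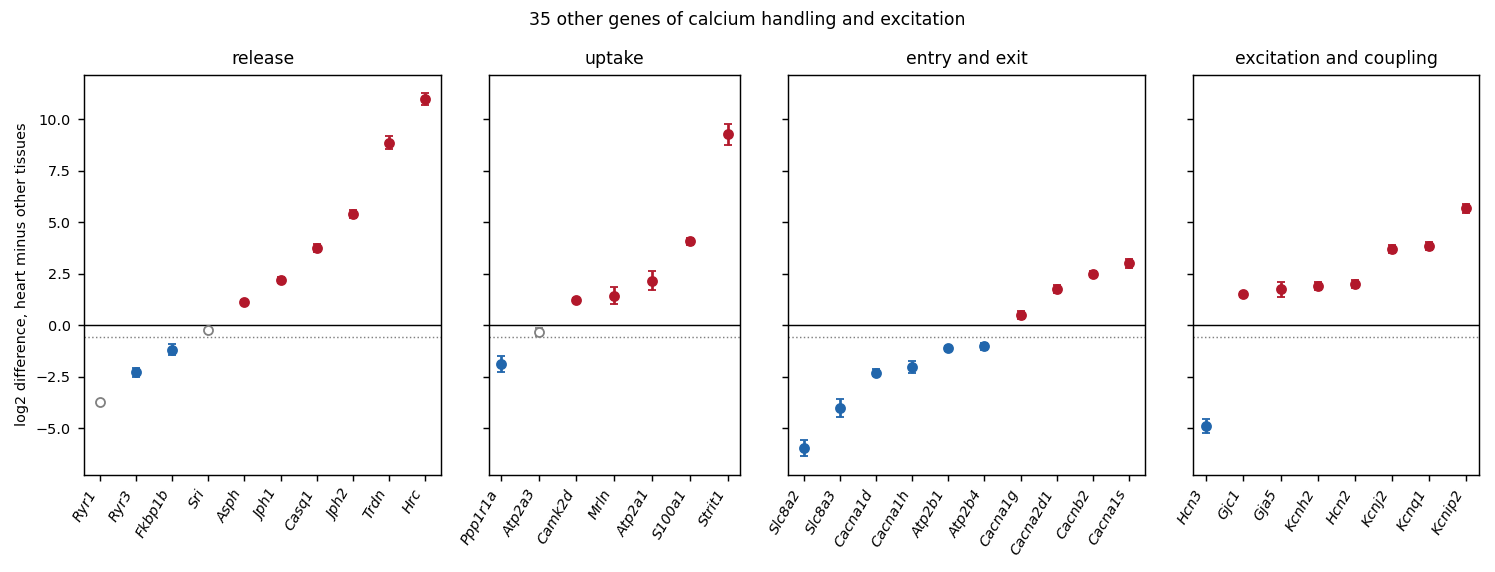
Log2 difference between heart and the other tissues for 35 genes in 4 lists, with bars for the standard error (none for Ryr1), red for higher, blue for lower and open grey for not called. The dotted line is the median of all genes at -0.55, and Hrc (11.00) and Slc8a2 (-5.96) are the extremes.

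The genes whose pattern over the 29 libraries was most like a member's, by Pearson r on log2 CPM, gave a description of the company each kept. Leaving out the overlapping antisense genes, these were Sdha (0.98) and Idh3b (0.98) for Atp2a2 and Eno3 (0.99) and Ankrd1 (0.98) for Pln. For Ryr2 they were Smpd1 (0.97), Lrrc20 (0.97) and Pygb (0.97), and for Casq2 Fyco1 (0.95) and Ttn (0.95). Cacna1c was followed by Gapdh (0.97), Opa3 (0.97) and Vdac1 (0.96), Slc8a1 by Pgk1 (0.97), Trak2 (0.97) and Ank (0.96), and Hcn4 by Eef1a2 (0.97), Ppargc1a (0.96) and Ppp1r3c (0.96). Gja1 was followed by 2610507I01Rik (0.96), Itm2a (0.95) and Hey2 (0.94). The libraries share tissues and scaling, so these values describe tissue patterns.

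Male and female heart were compared last. No member was called (0 of 9 in edgeR's test, 4 at an unadjusted p under 0.05, and 0 in DESeq2 and in limma voom, with 6 each at an unadjusted p under 0.05), where 0.0635% of all genes were called. That share is 19 genes, which became 253 in DESeq2, 43 in limma voom and 7 to 285 with a library left out, and Sln was called without female heart replicate 1 (-5.07, adjusted p = 0.0498). On library totals both male libraries were above all 3 female ones in 5 of the 9 (Ryr2, Atp2a2, Casq2, Cacna1c and Slc8a1), which held for 4.46% of all genes. Of the 6 heart muscle markers Myh6 and Actc1 were also higher in both male libraries than in all female ones (Myh6 at 4951 and 4720 FPKM against 3441, 4474 and 1789 FPKM), while the sum of the 6 overlapped between the sexes. The sum of blood markers was 9551 and 7783 FPKM in the male libraries and 21881, 21337 and 6202 FPKM in the female ones. The part of these markers was not tested. Ryr2 was at 87.1 ± 0.465 FPKM in male (SD, n = 2) and 54.9 ± 13.5 FPKM in female heart (n = 3), a log2 difference of male minus female of 0.76 (SE 0.38, adjusted p = 0.530). Atp2a2 (0.52, SE 0.27, adjusted p = 0.551), Casq2 (0.62, SE 0.30, adjusted p = 0.517), Cacna1c (0.73, SE 0.34, adjusted p = 0.495) and Slc8a1 (0.46, SE 0.22, adjusted p = 0.506) were not called either. Without female heart replicate 3 the differences of Ryr2, Atp2a2, Casq2, Cacna1c and Slc8a1 were 0.44, 0.18, 0.30, 0.37 and 0.26. Sln had a difference of -4.48 (SE 1.53, adjusted p = 0.306), which was 0.12 without that library. The sex difference in heart was also set against the mean sex difference in brain, cerebellum and colon. Again 0 of 9 members were called in edgeR's test, with 0 at an unadjusted p under 0.05. In that test 0.00334% of all genes were called, which is 1 gene, against 80 in DESeq2, 15 in limma voom and 0 to 42 with a library left out. DESeq2 and limma voom called 0 members as well, with 1 and 3 at an unadjusted p under 0.05.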

How the data were processed

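Ribosomal RNA was removed from total RNA before strand-specific libraries were made, and the authors deposited whole-number read counts per gene, without normalization, on an annotation of Iso-seq loci and ENSEMBL genes (GRCm38.p6). The submitters' processing notes name HISAT2 2.0.5 and featureCounts 1.6.3. Whether strand was used in counting is not given in the sources used here. All 29 count columns were used. From these counts FPKM was computed on library totals and exon unions.

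Differences were fitted with edgeR 4.0.16 (R 4.3.3), in 1 quasi-likelihood fit over all 29 libraries with a mean per tissue and sex, TMM, the default filter by group and Benjamini-Hochberg adjustment over 29911 genes. Log2 CPM for likeness used a prior count of 2. The fit was tested on simulated data. Where a compared group has no counts this test can give p near 1, which held for 5582 genes with p over 0.99, 5433 of them lower in heart. DESeq2 1.42.0 was one alternative. The others were DESeq2's size factors, no filter, a replicate block, no mitochondrially encoded genes, fits without gonads and each library left out. Then limma 3.58.1 (voom) and library totals without TMM were added after the data were seen. No 2 replicates had identical values. Gene names came from the deposited files and GENCODE M21, promoters from RefSeq.

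The members and lists were chosen with earlier results of these data known. Genes were named by rule: all members and their paralogs, up to 2 called genes with the largest difference in each direction of each list, the 3 genes most like each member, and markers where a result turns on them. Atp2b1, Atp2b4 and Cacna1g do not meet it and were chosen with their values known. Some genes of these lists are not reported here and were left out of the counts.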

Additional observations from a re-analysis of the deposited data

Results flagged for a closer look

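In groups of 4 to 10 libraries, the highest or lowest library was set against the rest with Dixon's criterion. Of 36 groups of a member in a tissue, 5 were past its 95% limit, and chance gives about 1 in 20 groups, or 1.8 of 36. Sln in heart stood out most, with 134.7 FPKM in female replicate 3 and a gap of 0.981 of the range. Sln in colon reached 0.361 FPKM in male replicate 1, which is 9 counts. Atp2a2 in cerebellum was at 138 FPKM in male replicate 2. Pln was at 2.29 FPKM in cerebellum female replicate 3, the highest there, and at 0.438 FPKM in brain male replicate 2, the lowest there.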

How the results depend on the processing

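Each comparison was recomputed under every alternative and without each library in turn. All 9 members stayed called higher in heart than in the other tissues, except Sln without male heart replicate 1. Counts of genes called for sex in heart moved from 19 to 30 without the filter on low counts, 253 in DESeq2 and 43 in limma voom, and to between 7 and 285 with a library left out (246 without female heart replicate 1, 285 without female heart replicate 2, 7 and 9 without male heart replicates 1 and 2). Members called for sex went from 0 to 1 with a library left out, Sln without female heart replicate 1 (adjusted p = 0.0498). The sex difference in heart against the other tissues had 1 gene called, 2 without the filter, 80 in DESeq2 and 15 in limma voom, and 0 to 42 with a library left out (42 and 38 without female heart replicates 1 and 2, 0 without female heart replicate 3 or either male one). The direction turned for Gja1 in heart against brain (-0.39 with library totals) and against cerebellum (0.014 with DESeq2 and 0.014 with its size factors), and for Cacna1g (-0.85 against brain, cerebellum and colon only, -0.76 in a fit of those tissues and heart, and -0.022 with library totals). With a library left out, Gja1 ran from -0.019 to 0.29 against brain and from -0.16 to 0.10 against cerebellum. The sex difference in heart ran from -0.25 to 0.61 for Pln, from -13.35 to 0.12 for Sln and from -0.0090 to 0.39 for Gja1, and the difference of sex differences from -0.018 to 0.84 for Pln and from -13.15 to 0.34 for Sln. The causes were not tested.

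Deviations from the group mean in heart and in same-numbered libraries of another tissue were correlated from -0.07 to 0.09. For female libraries with other numbers the range was -0.13 to 0.13. These values cannot settle whether same-numbered libraries came from the same animal. With 2 male heart libraries the deviations mirror each other, so the male pairs add nothing. With the replicate block 15132 genes in place of 15452 were called between heart and the other tissues, and the block changed no call of a member. Mean levels in heart rose with totals scaled by TMM, to 2966 FPKM for Pln, except that of Sln, which went from 27.9 to 25.6 FPKM. The level of Gja1 in heart was 25.6 FPKM with the GENCODE exon length. Depth limits Sln and Hcn4, whose libraries outside heart held 0 to 21 and 1 to 172 counts, and counting intervals or floors cover counting error only. The 2 male heart libraries limit the comparison of sexes.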
